A study of Homo sapiens with 19 samples.

Results

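Integrin, laminin and collagen genes, with fibronectin (FN1), thrombospondin-1 (THBS1) and SPARC, were followed as 44 named genes among 20037 protein-coding genes of the RefSeq table of GRCh38.p14. They comprise 11 genes of integrin alpha subunits, 6 of beta subunits, 9 of laminin chains, 15 of collagen chains and 3 of other matrix glycoproteins; they were listed by name, and their positions came from the table. Not all of both families are among them, and 140 related genes of adhesion and matrix were followed separately. Each gene was taken with its body and 10 kb on each side, called its window here.

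The cells were 2 polyclonal derivatives of MDA-MB-231, a human triple-negative breast cancer line (parental name 231Pa), both carrying stably expressed luciferase. 231Pa_Luc+OCT-2 also carried POU2F2, the gene of the transcription factor OCT-2, and 231Pa_Luc+GFP also carried GFP as its control. H3K27ac, the histone acetylation of active enhancers and promoters, was profiled by ChIP-seq in 2 replicates of each, and OCT-2 in 2 replicates of 231Pa_Luc+OCT-2, which is 6 of the 19 samples of the study. The authors merged the replicates into 1 list of regions per antibody and cell: 518 superenhancers (broad domains of dense H3K27ac) in 231Pa_Luc+OCT-2, 337 in 231Pa_Luc+GFP, and 5741 OCT-2 peaks. The lists give positions on hg38 and no counts, so the depth is unknown, no value has a replicate error, and every statement below is a description of these lists without a test. A superenhancer of the OCT-2 cells is called shared where at least 1 bp of it met one of the control cells (314 regions), and Luc+OCT-2-only otherwise (204). The control list left 29 regions that met none of the OCT-2 cells.

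Integrins are receptors of an alpha and a beta chain that span the membrane and tie the cytoskeleton to the matrix outside the cell. Laminins are trimers of an alpha, a beta and a gamma chain that form the sheet of basement membranes with type IV collagen, while fibrillar collagens and fibronectin build the interstitial matrix. In breast carcinoma cells, integrins that bind collagen, laminin and fibronectin are known for roles in attachment, invasion and survival. The labelled cell type was checked first against its markers: of 6 genes taken as mesenchymal and basal markers, VIM, CD44, AXL, EGFR and FOSL1 lay at shared superenhancers and CAV1 at none. Of 8 luminal markers and 10 leukocyte markers, 0 lay at a superenhancer of any class, and of 8 markers of endothelial cells and fibroblasts PECAM1 alone did, at a region of the control cells. Of all protein-coding genes, 3.87% lay at a shared superenhancer and 5.98% at one of any class. Genes of like length would give 0.48 luminal and 0.59 leukocyte genes, so the counts of 0 do not tell cell types apart. OCT-2 peaks were present in the windows of 4 of these markers of other cell types, ESR1 and GATA3 (luminal), PTPRC (leukocyte) and VWF (endothelial). Genes of like length would give 1.38 luminal, 1.23 leukocyte, and 1.4 endothelial and fibroblast genes with a peak. Among the 6 mesenchymal and basal markers, VIM, CD44, AXL and EGFR had a peak, 4 genes where those of like length would give 1.12. The share of all protein-coding genes with a peak was 15.5%. These differences were not tested.

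Superenhancers met the windows of 4 integrin genes, 2 laminin genes and 1 collagen gene. In all, 7 of the 44 genes (15.9%) had a superenhancer in their window, where 5.98% of all protein-coding genes did. ITGA10 and ITGB2 lay at Luc+OCT-2-only regions, 2 of 44 or 4.55%, beside a background of 1.93%. ITGA2, ITGA3, LAMA5, LAMC1 and COL6A3 lay at shared regions, 5 of 44 or 11.4%, beside 3.87%. None lay at a region listed for the control cells only (background 0.245%). By list, 7 genes met a region of the OCT-2 cells (5.74% of all protein-coding genes) and 5 met one of the control cells (4.31%). OCT-2 peaks were present in 12 windows (27.3%), where 15.5% of all protein-coding genes had one. Both features were present at 4 genes, ITGA2, ITGA3, ITGA10 and ITGB2 (9.09%, beside a background of 2.36%). The other 29 genes had neither.

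The promoters that bear on these results are those whose start lay inside a superenhancer. The RefSeq promoter table (GRCh38.p14) matched 31 of the 44 genes with 36 starts. ITGA3 and ITGB2, which lay whole inside superenhancers, have no entry in that table, so their promoters could not be printed. Of the 31 genes matched, ITGA2 and LAMA5 had their start inside a superenhancer in both cells, and COL6A3 and ITGA10 in the OCT-2 cells alone. The list of the OCT-2 cells is the longer one, with 518 regions against 337. The share of all protein-coding genes with a start inside a superenhancer was not computed, so these counts have no background. The 250 bases before each of these starts are printed 5′ to 3′ on the strand of the gene, and capitals mark a match to CATTCC, the motif of TEAD factors, on either strand; the octamer ATGCAAAT and the AP-1 motif TGANTCA had no match in them.
ITGA2 (chr5:52989102-52989351, plus strand): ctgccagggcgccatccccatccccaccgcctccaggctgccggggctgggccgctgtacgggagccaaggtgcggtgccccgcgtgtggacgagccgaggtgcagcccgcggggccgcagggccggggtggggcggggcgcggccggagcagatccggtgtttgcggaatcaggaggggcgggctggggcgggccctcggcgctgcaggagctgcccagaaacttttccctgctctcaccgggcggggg
LAMA5 (chr20:62367313-62367562, minus strand): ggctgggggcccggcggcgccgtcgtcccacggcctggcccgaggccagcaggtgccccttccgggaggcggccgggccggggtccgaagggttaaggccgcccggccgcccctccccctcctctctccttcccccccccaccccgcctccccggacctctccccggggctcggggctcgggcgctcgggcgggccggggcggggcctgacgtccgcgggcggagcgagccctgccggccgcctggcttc
COL6A3 (chr2:237414165-237414414, minus strand): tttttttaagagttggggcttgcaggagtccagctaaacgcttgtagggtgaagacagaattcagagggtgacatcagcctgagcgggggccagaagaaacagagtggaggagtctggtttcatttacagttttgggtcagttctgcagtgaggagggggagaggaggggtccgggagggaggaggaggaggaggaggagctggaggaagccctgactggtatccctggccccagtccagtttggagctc
ITGA10 (chr1:145910051-145910300, minus strand): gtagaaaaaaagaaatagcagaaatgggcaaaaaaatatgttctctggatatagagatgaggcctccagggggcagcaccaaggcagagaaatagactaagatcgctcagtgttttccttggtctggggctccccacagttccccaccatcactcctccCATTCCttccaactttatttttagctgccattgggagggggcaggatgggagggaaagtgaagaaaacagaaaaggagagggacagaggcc
The promoters differ in base composition. G and C make up 76.4% of the bases before the start of ITGA2 and 82.8% before LAMA5, against 56% for COL6A3 and 48.4% for ITGA10. None of the 36 windows of 300 bases (250 before the start, 50 after it) held an octamer, which 1.66% of all 22199 promoter windows of protein-coding genes in the table held. AP-1 was matched in 1 of the 31 genes, ITGA5, beside 8.04% of the 15843 protein-coding genes with an entry. CATTCC was matched in 6 of the 31 (ITGA5, ITGA10, LAMA2, COL12A1, SPARC and THBS1), beside 15.6% of those genes. The 3 motifs do not contain one another. No OCT-2 peak overlapped any of the 36 windows, and the smallest distance from a listed start to a peak was 8.7 kb, at ITGA10. The share of all promoter windows that a peak overlapped was not computed. Only 2.91% of all protein-coding genes had a peak within 1 kb of a gene end, so an absence here is common. Peak sequences were not used here, so whether the bound sites themselves hold an octamer was not examined.

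**Figure D1:**
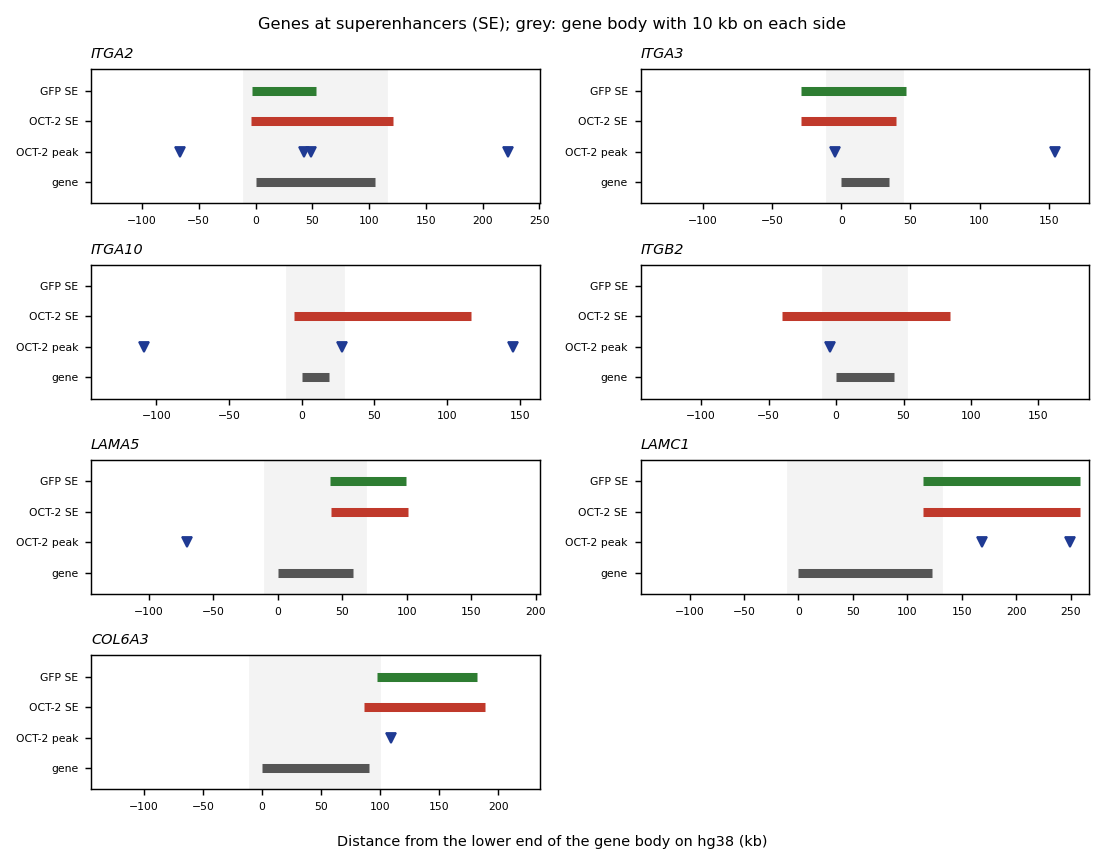
Superenhancers of 231Pa_Luc+GFP (green) and 231Pa_Luc+OCT-2 (red), OCT-2 peaks (triangles) and gene bodies (dark grey) at the 7 genes with a superenhancer in their window (light grey), in kb from the lower end of each gene on hg38. At ITGA2 the red bar covers the whole gene and the green bar 50.3% of it; ITGA10 and ITGB2 have no green bar.

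Among the receptors, ITGA2 (chr5:52989352-53094779, gene body of 105.4 kb) encodes the alpha chain of a collagen receptor. Its superenhancer differed in extent between the cells. In 231Pa_Luc+GFP it was 55.8 kb wide (chr5:52986584-53042379) and covered 53.0 kb, or 50.3%, of the gene from its start, and in 231Pa_Luc+OCT-2 it was 125.2 kb wide (chr5:52985390-53110619) and covered 100% of the gene, and met MOCS2 as well. Over all 297 shared superenhancers that met exactly 1 region of the other list, the ratio of the width in the OCT-2 cells to that in the control cells had a median of 1.0, with quartiles of 0.88 and 1.0. At ITGA2 the ratio was 2.24, and 4 of the 297 pairs, ITGA2 included, had a ratio as high (1.35%). ITGA2 held 2 OCT-2 peaks, at 42.6 kb (chr5:53031822-53032065) and 48.5 kb (chr5:53037671-53038001) downstream of its start, and both lay inside the part of the region present in both cells.

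ITGA1 (chr5:52787916-52959209), the neighbour of ITGA2 and also the gene of a collagen-binding alpha chain, was not reached by that region. The gap between its gene body and the region was 26.2 and 27.4 kb for the OCT-2 and the control cells. ITGA1 held 1 OCT-2 peak (chr5:52922389-52922676), 134.6 kb downstream of its start and outside superenhancers.

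ITGA3 (chr17:50056110-50090481), which encodes the alpha chain of a laminin receptor, lay whole inside a shared superenhancer. The region was 69.2 kb wide in the OCT-2 cells (chr17:50026771-50095951) and 76.1 kb in the control (chr17:50026732-50102838), a ratio of 0.91, and 72.4% of the shared pairs had a ratio as high or higher. It also held PDK2, the gene of a mitochondrial kinase. Its 1 OCT-2 peak (chr17:50051140-50051418) lay 4.8 kb below the lower end of ITGA3, in the noncoding gene PICART1. COL1A1 lies on the same arm of chromosome 17, with a gap of 88.2 kb to this region as listed for the OCT-2 cells and 81.3 kb as listed for the control.

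ITGA10 (chr1:145891208-145910050), the gene of another collagen-binding alpha chain, lay whole inside a Luc+OCT-2-only superenhancer of 121.6 kb (chr1:145886053-146007615). ITGA10 is 1 of 7 protein-coding genes that this region met, and the region reached 97.6 kb past its upper end, where the gene starts. Among the others were TXNIP, which encodes an inhibitor of thioredoxin, RBM8A and POLR3GL. The lists do not tell these 7 genes apart. The nearest superenhancer of the control cells was 4567.2 kb away. The region held 1 OCT-2 peak (chr1:145918793-145919068), 8.9 kb upstream of the start of ITGA10 and inside the annotated GNRHR2.

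ITGB2 (chr21:44885953-44928815), which encodes the beta chain of the leukocyte integrins, was the only one of the 6 beta subunit genes at a superenhancer. The Luc+OCT-2-only region of 124.9 kb (chr21:44845884-44970734) covered the whole gene and met PTTG1IP and SLX9 as well. It was merged from 3 calls, where 512 of the 518 regions had 2. Its 1 OCT-2 peak (chr21:44880948-44881189) lay 4.9 kb below the lower end of ITGB2. The nearest region of the control cells was 3100.9 kb away. The genes of the alpha chains that pair with it in leukocytes, ITGAL, ITGAM, ITGAX and ITGAD, had no superenhancer and no OCT-2 peak in their windows. ITGAL, ITGAM and ITGAX are also among the 10 leukocyte markers above, so the 0 superenhancers at those markers are not a separate observation. Genes of like length would give 0.59 for the 10. The part of these leukocyte genes in the ITGB2 result was not tested. COL18A1, COL6A1 and COL6A2, on the same chromosome, had the ITGB2 region as their nearest superenhancer of the OCT-2 cells, at 434.4, 1011.0 and 1127.4 kb.

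The remaining integrin genes had no superenhancer in their windows. ITGB8 (chr7:20329766-20415754), whose product binds latent TGF-β, held 1 OCT-2 peak (chr7:20407767-20408004), 77.0 kb downstream of its start and 7.9 kb before the end of the gene body. ITGA5, the fibronectin receptor alpha chain, had its nearest peak at 35.9 kb and its nearest superenhancer of the OCT-2 cells at 2108.9 kb. For ITGAV, the alpha chain shared by several receptors of vitronectin and latent TGF-β, these distances were 132.8 kb and 13670.1 kb, and for ITGB3, its partner in the vitronectin receptor, 13.6 kb and 1156.3 kb. ITGB5 and ITGB6, other partners of ITGAV, had their nearest peak at 186.4 and 29.3 kb. ITGA4, ITGA7, ITGA8, ITGA9, ITGA11 and ITGB7 had their nearest peak between 64.8 kb (ITGA8) and 680.0 kb (ITGA4) away.

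Of the laminin genes, LAMA5 and LAMC1, of which the products assemble with a beta chain into a widespread basement membrane laminin, lay at shared superenhancers. LAMA5 (chr20:62309065-62367312) was covered over 17.4 kb at its start, or 29.8% of the gene, in the OCT-2 cells, and over 17.7 kb, or 30.3%, in the control. The region also met RPS21 and CABLES2 in both and RBBP8NL in the OCT-2 cells, and its widths were 60.4 kb (chr20:62349926-62410327) and 58.7 kb (chr20:62349647-62408335), a ratio of 1.03. It held 0 OCT-2 peaks, where 78.4% of all superenhancers of these cells held at least 1.

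At LAMC1 (chr1:183023420-183145592) the superenhancer covered only the far end of the gene, 7.5 kb or 6.15% of it in the OCT-2 cells, and 7.4 kb or 6.05% in the control. The start of LAMC1 lay outside. Most of the domain, 144.3 kb wide (chr1:183138084-183282345) against 144.1 kb in the control, lay past the end of LAMC1 and reached into NMNAT2. Both of its OCT-2 peaks lay beyond the window of LAMC1, at 46.4 and 126.8 kb past its end.

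LAMB1, which encodes the beta chain that pairs with both, had its nearest OCT-2 superenhancer at 1573.9 kb and its nearest peak at 1148.8 kb. Its neighbour LAMB4 had the farthest peak of the 44 genes, at 1236.7 kb. LAMA2 (chr6:128883138-129516566), the laminin gene of muscle and the longest of the 44 at 633.4 kb, held 1 OCT-2 peak (chr6:129187039-129187316), 304.0 kb from its start. A Luc+OCT-2-only superenhancer at ARHGAP18 lay 124.9 kb beyond LAMA2, where the nearest region of the control cells was 28506.6 kb away. LAMA1, LAMA4, LAMB2 and LAMC3 had neither feature in their windows, with the nearest peak between 62.9 and 499.9 kb.

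Of the 15 collagen genes, COL6A3 alone had a superenhancer in its window. COL6A3 (chr2:237324018-237414164) encodes the largest chain of the microfibrillar type VI collagen. In the OCT-2 cells the region (chr2:237410155-237513022, 102.9 kb) covered the first 4.0 kb of the gene, 4.45% of it, with its start. In the control cells the corresponding region (chr2:237421301-237505884, 84.6 kb) ended 7.1 kb short of the gene. The ratio of widths was 1.22, and 8.08% of the shared pairs had one as high. Both regions also met MLPH, a gene of melanosome transport, and held 1 OCT-2 peak (chr2:237432821-237433096), 18.8 kb upstream of the start of COL6A3 and thus beyond its window. The genes of the other 2 chains, COL6A1 and COL6A2, were 622.7 and 494.9 kb from a peak.

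**Figure D2:**
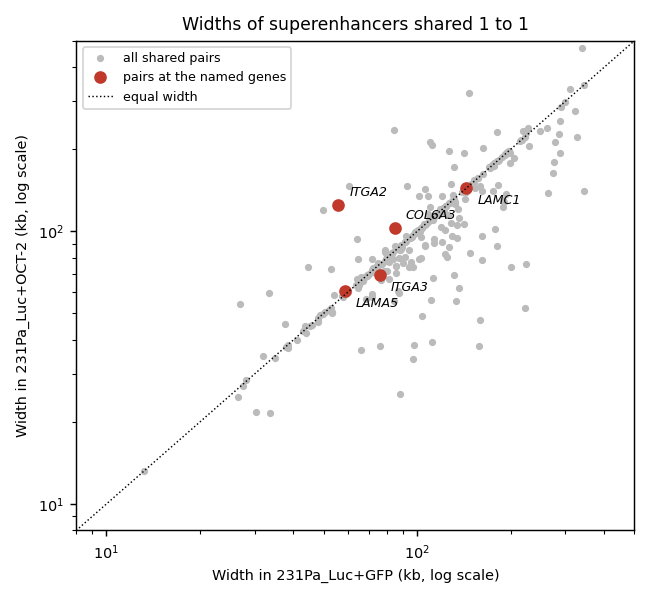
Width of each of the 297 superenhancers shared 1 to 1, in the control cells (horizontal) and in the OCT-2 cells (vertical), both in kb on log scales, with the equal-width line dotted and the 5 regions at integrin, laminin and collagen genes in red. ITGA2 lies above the line (125.2 against 55.8 kb), and LAMC1 and LAMA5 lie on it.

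A further 5 collagen genes had an OCT-2 peak in their windows and no superenhancer. COL8A1 (chr3:99638594-99799217), a gene of a short-chain collagen of vessel walls and the subendothelium, had its peak (chr3:99637126-99637462) 1.3 kb below the lower end of the gene, in the annotated LOC124909401, the smallest distance to a gene end among all 13 peaks. COL5A2 (chr2:189031898-189441111), which encodes a minor fibrillar chain, had its peak (chr2:189037608-189037904) 5.9 kb inside the lower end of the gene body. COL4A2 (chr13:110307284-110513209), a chain of basement membrane collagen, had its peak (chr13:110380056-110380352) 72.9 kb downstream of its start.

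The other 2 peaks, like that of COL8A1, lay outside the gene they were counted for. That of COL7A1 (chr3:48564073-48595329), the collagen of the fibrils that anchor the epidermis, (chr3:48557017-48557271) was 6.9 kb below the lower end of the gene, in the body of PFKFB4. That of COL1A1 (chr17:50184101-50201631), the main fibrillar chain, (chr17:50210332-50210704) was 8.9 kb above the upper end of the gene, in no annotated gene. COL1A2, which encodes the chain that joins COL1A1 in type I collagen, had no peak within 505.3 kb and no OCT-2 superenhancer within 11845.4 kb.

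**Figure D3:**
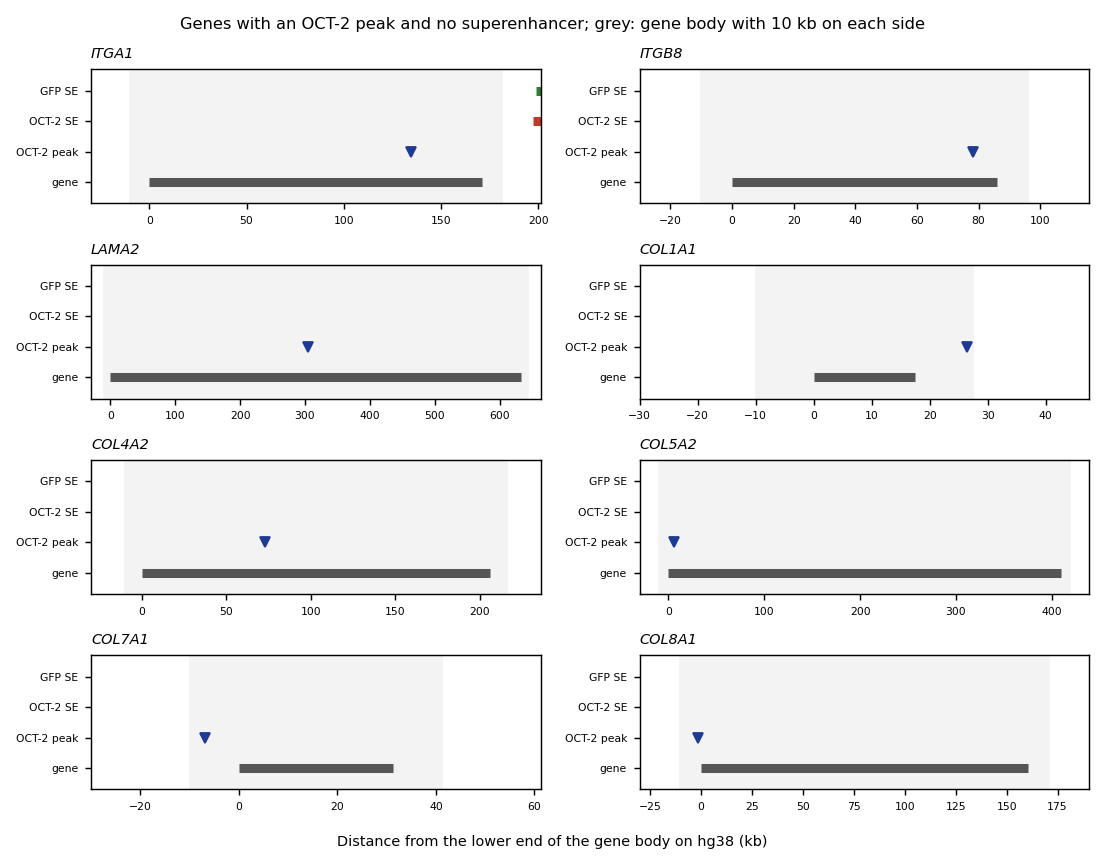
OCT-2 peaks (triangles) and gene bodies (dark grey) at the 8 genes with a peak in their window (light grey) and no superenhancer there, in kb from the lower end of the gene on hg38. The peaks of ITGA1, ITGB8, LAMA2, COL4A2 and COL5A2 lie in the gene body, and those of COL1A1, COL7A1 and COL8A1 outside it.

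COL3A1, COL4A1, COL5A1, COL6A1, COL6A2, COL12A1, COL17A1 and COL18A1 had neither feature. COL17A1, a collagen of hemidesmosomes, came closest, with a peak at 13.4 kb and a Luc+OCT-2-only superenhancer at SH3PXD2A at 248.4 kb (control cells: 1354.2 kb). COL4A1 and COL4A2, which share a divergent promoter region, were 64855.7 and 65014.0 kb from any superenhancer of the OCT-2 cells, and the control list held none on chromosome 13.

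The 3 other matrix genes had neither feature. FN1 had a peak at 21.2 kb and its nearest superenhancer of the OCT-2 cells at 10974.2 kb, against 10974.3 kb in the control cells. THBS1, which encodes a matricellular activator of TGF-β, was 279.3 and 279.1 kb from a superenhancer, in a shared region. SPARC, a collagen-binding matricellular protein, was 51.1 kb from a Luc+OCT-2-only superenhancer at ATOX1 and G3BP1 (36.2 kb wide, with 1 OCT-2 peak), and 545.7 kb from any region of the control cells.

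**Figure D4:**
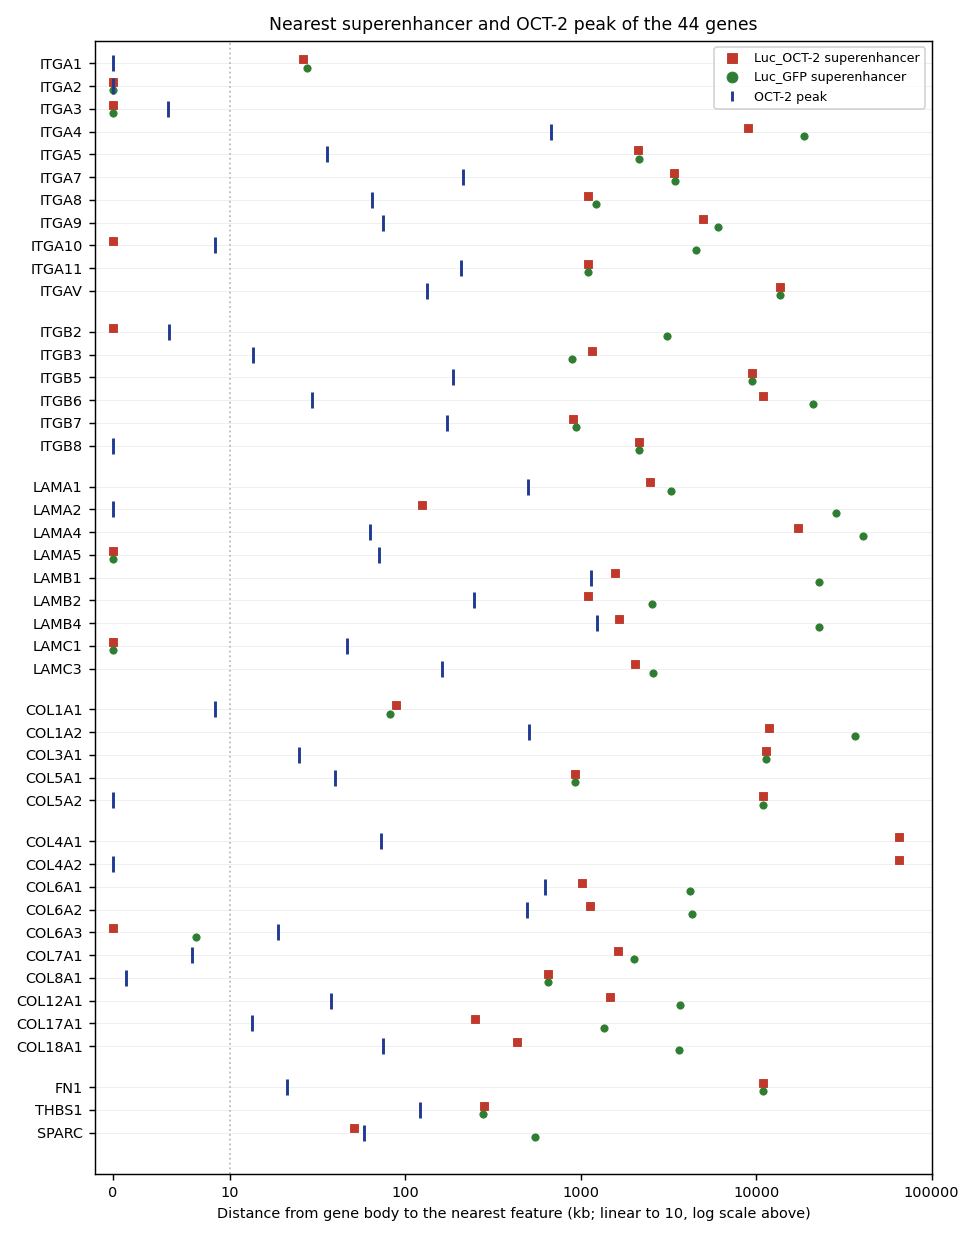
Distance in kb (linear up to 10 kb, log scale above) from each of the 44 gene bodies to the nearest superenhancer of the OCT-2 cells (red squares), of the control cells (green circles) and to the nearest OCT-2 peak (blue ticks), with genes grouped by role and the dotted line at the window edge of 10 kb. The 7 genes at superenhancers have red squares at 0, and COL4A1 and COL4A2 have no green circle because the control list holds no region on their chromosome.

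The 44 genes were also set against genes of like length. The median length of the 44 was 85.6 kb and that of all protein-coding genes 24.1 kb. Because 37 of the 44 genes are longer than the median protein-coding gene, each was compared with the genes in its length decile. Summed over the 44, those shares give 1.6 genes at shared regions (5 observed), 0.87 at Luc+OCT-2-only regions (2 observed) and 0.11 at regions of the control cells alone (0 observed). For OCT-2 peaks the length deciles give 10.41 genes and 12 were observed. In the top decile of length, 41.9% of all protein-coding genes had a peak, and of the 10 members there LAMA2, COL5A2, COL4A2, ITGA1 and COL8A1 did. The 44 windows held 2.23 peaks for each Mb of their length and the windows of all protein-coding genes 2.51, with values by role from 0.62 (laminins) to 3.54 (integrin beta subunits) and 0 in the 3 glycoprotein genes. How far these small counts lie from the background was not tested.

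**Figure D5:**
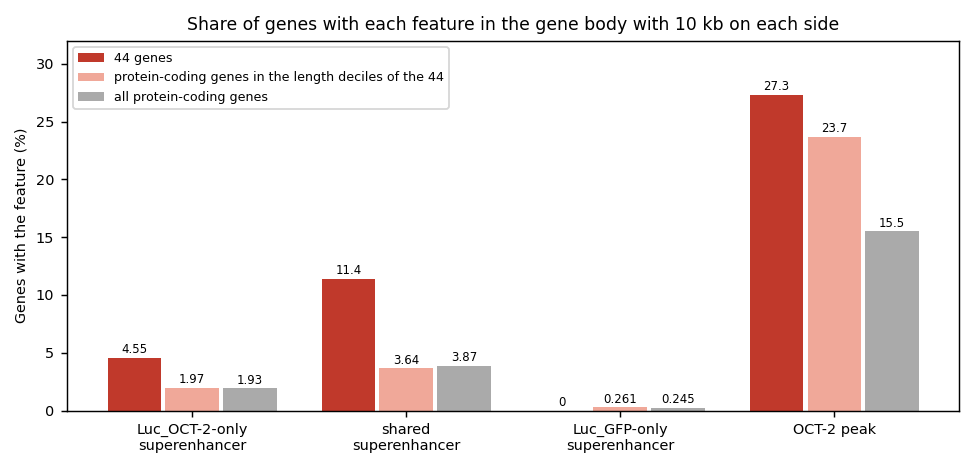
Percentage of genes with each feature in the window: the 44 genes (red), protein-coding genes in the length deciles of the 44 (pale red) and all 20037 protein-coding genes (grey). For OCT-2 peaks the pale bar (23.7%) is close to the red one (27.3%), and for shared superenhancers it is 3.64% against 11.4%.

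The counts were also taken by group. Of 17 integrin genes, 4 lay at superenhancers and all 4 also had an OCT-2 peak in the window. The length deciles give 0.96 integrin genes at superenhancers and 0.53 with both. A peak was present at 6 of the 17 (3.87 from the deciles). Peaks are common at superenhancers: of the 1198 protein-coding genes at one, 472 also had a peak in the window. Without the 10 kb on each side, ITGA3, ITGA10 and ITGB2 had no peak. Of 9 laminin genes, 2 lay at superenhancers (0.52 from the deciles) and neither had a peak in its window; 1 laminin gene had a peak, against 2.33 from the deciles. Of 15 collagen genes, 1 lay at a superenhancer (0.89 from the deciles) and 5 had a peak (3.8 from the deciles). Differences between the groups were not tested. Farther out, 29 of the 44 genes (65.9%) had an OCT-2 peak within 100 kb. The share was 41.2% for all protein-coding genes and 46.2% by length decile.

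The 140 related genes were taken from lists of adhesion and matrix genes. At Luc+OCT-2-only regions lay ITGA6 (the alpha chain of a laminin receptor), AGRN (a basement membrane proteoglycan) and PTK2 (focal adhesion kinase). These 3 are 2.14% of the 140, at the background of 1.93% of all protein-coding genes and 2.93 genes from the length deciles. Shared regions met 20 of them, or 14.3%, beside 3.87% of all protein-coding genes and 5.18 genes from the deciles. Regions of the control cells alone met HSPG2, the gene of perlecan, and TNS3. These 2 are 1.43% of the 140, beside 0.245% of all protein-coding genes and 0.38 genes from the deciles. Of 10 further integrin genes ITGB1, the partner of the collagen- and laminin-binding alpha chains, and ITGB4 lay at shared regions (0.35 genes from the deciles). Of 11 further genes of basement membrane, LAMB3 and FRAS1 were among the 3 that did so (0.39 from the deciles), and of 29 further collagen genes COL13A1 did so (1.07 from the deciles). None of these differences was tested.

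Focal adhesion genes, which encode the proteins that link integrins to actin, gave 7 of 30 at shared regions, among them PXN, ACTN4, TNS4, VASP and FERMT3, where the length deciles give 1.11. Matrix receptors other than integrins gave 3 of 14 (CD44, BCAM and CD151), with 0.54 from the deciles. Collagen-processing genes gave 2 of 22 (LOXL1 and LOXL2), with 0.82, and matricellular genes 2 of 24 (CCN1 and TNXB), with 0.91. OCT-2 peaks were present in the windows of 44 of the 140 (31.4%), where length deciles give 31.77 genes, and the largest counts were 5 peaks at ACTN4 and 5 at LPP, a gene of 737.7 kb. Of 29 further collagen genes 9 had a peak, where the deciles give 9.04. How far these counts lie from the background was not tested.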

How the data were processed

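Chromatin of MDA-MB-231 derivatives was precipitated with antibodies against H3K27ac or OCT-2. Named in the submitters' processing notes are HOMER, bedtools, Bowtie and Bowtie2 2.2.2.6, with hg38 and hg19 as builds; tool roles and calling thresholds were not given in the sources used here. Of the 10 deposited lists, the 3 on hg38 were used, with regions merged by the authors from 2 replicates, per the labels. Other lists are on hg19 or lie with the hg19 lists by their region ends, and positions were not converted between builds. The deposited files hold starts and ends and no score, count or signal. The labels do not say whether replicates came from separate cultures.

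Genes came from the RefSeq table of GRCh38.p14, which gives gene ends and no exons, so exons and introns are not named; strand and start came from its promoter table, and 13 of the 44 genes have no entry there. Ends are called lower and upper by coordinate where no strand was used. Positions are 1-based; 5 peaks on unplaced contigs were left out. Distances to the nearest feature run from edge to edge, and distances to a named peak run to its centre. Shared regions are those of the 231Pa_Luc+OCT-2 list. Length-decile counts sum, over genes, the share of protein-coding genes in the same decile of gene length that had the feature. All 44 genes were accounted for, and those with a superenhancer or a peak in the window were described in full; related genes at superenhancers were named.

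Some neighbouring and related genes are not reported here by name. The genes and lists were chosen with earlier results of these data known. Class assignment and counting were tested on simulated regions planted at known genes. Alternatives were other windows, overlaps, gene assignments, region and peak subsets and length bins. Python 3.11.15, pandas 2.3.3, numpy 2.4.6 and matplotlib 3.10.9 were used.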

Additional observations from a re-analysis of the deposited data

How the results depend on the processing

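No paired analysis was possible because the lists pool the replicates and hold no value per replicate; for the same reason no replicate could be left out. With only the 337 widest superenhancers of the OCT-2 cells, shared regions met 3 of the 44 genes (3.3% of all protein-coding genes), and 2, ITGA3 and LAMA5, then counted at regions of the control cells alone (0.943%). With each region given only to the gene nearest to its middle, 1 gene remained at Luc+OCT-2-only regions (ITGB2, without ITGA10; 0.988% of all protein-coding genes) and 2 at shared ones (ITGA2 and ITGA3; 1.5%). OCT-2 peaks met 6 genes without the extension of 10 kb and 22 with 50 kb, and the share of all protein-coding genes moved with them, from 10.7% to 28.9%. Peaks met 0 of the 44 genes within 1 kb of a gene end (2.91% of protein-coding genes). They also met 0 where only the 3 peaks merged from more than 2 calls were taken. That setting gave 0.0% of all protein-coding genes, so it says nothing of the 44. The other 29 recomputed counts stayed within 1.5 times the count reported, among them the superenhancer counts with 50 kb, where ITGA1 joined the shared class, and all length-decile counts with 5 or 20 bins. The genes behind 2 of these counts changed. Peaks outside superenhancers of the OCT-2 cells met 8 genes (13.8% of all protein-coding genes), without ITGA2, ITGA3, ITGA10 and ITGB2. With each peak given only to its nearest gene, 15 genes had one (17.5%). COL7A1 and ITGA10 were lost, and COL5A1, COL6A3, COL12A1, COL17A1 and ITGB6 gained. The depth of the libraries is unknown, and how far an unlisted region fell under the authors' threshold is not known.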
